A study of Homo sapiens with 6 samples.

Results

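The genes described here are 10 long noncoding RNAs: MALAT1 and NEAT1, which stay in the nucleus, and 8 transcripts that carry small nucleolar RNAs (snoRNAs) in their introns. The 8 hosts are GAS5, ZFAS1, EPB41L4A-AS1, SNHG1, SNHG5, SNHG6, SNHG8 and SNHG12. They were taken by symbol from a table of 32896 genes, and each of the 10 has 1 row there. They were measured by poly(A)-selected, strand-specific RNA-seq in BHT101, an established human line from an anaplastic thyroid carcinoma. One group of 3 libraries came from cells 48 h after lipid transfection with a plasmid for SK4, the calcium-activated potassium channel encoded by KCNN4, and the other 3 from cells given a control plasmid. All 6 share the parental line and the transfection, and the labels do not say whether the 3 libraries of a group are separate cultures, so the p-values cover the spread between these libraries, which may be technical. The treatment label of control 3 names BHT102, while its cell line label and source read BHT101.

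A snoRNA guides the chemical modification of ribosomal and other RNAs. Most human snoRNAs are cut out of introns after splicing, and in genes such as GAS5 and SNHG1 the spliced exons encode no long conserved protein. Many of these hosts begin with a run of pyrimidines, the 5' terminal oligopyrimidine (TOP) motif that ties ribosomal protein genes to growth signals, and spliced GAS5 and ZFAS1 are known targets of nonsense-mediated decay, which acts on translated RNA. MALAT1 lies in nuclear speckles, and NEAT1 is the scaffold of paraspeckles. The mature 3' ends of MALAT1 and of the long NEAT1 isoform are cut by RNase P and closed by a triple helix instead of a poly(A) tail. Poly(A) selection therefore need not recover them in proportion to their amount in the cell.

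Start-site sequences are shown first because they show how these genes differ at their starts, which the choice of genes did not use. RefSeq windows (GRCh38.p14) were found for 8 of the 10 genes, 9 windows in all since MALAT1 has a pair. Each line gives the strand of the gene, 60 bases before the annotated start and 20 from it. Capitals mark TATAA within 50 bases before the start, and the longest uninterrupted run of pyrimidines between 10 bases before and 20 after it, where that run has at least 6.
SNHG12: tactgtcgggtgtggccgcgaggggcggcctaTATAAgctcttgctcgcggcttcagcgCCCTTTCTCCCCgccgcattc
ZFAS1: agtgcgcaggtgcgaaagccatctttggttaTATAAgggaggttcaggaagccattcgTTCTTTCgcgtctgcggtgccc
SNHG5: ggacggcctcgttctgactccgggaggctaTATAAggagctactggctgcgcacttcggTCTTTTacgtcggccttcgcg
SNHG8: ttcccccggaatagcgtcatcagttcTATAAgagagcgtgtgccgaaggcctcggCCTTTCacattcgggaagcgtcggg
SNHG1: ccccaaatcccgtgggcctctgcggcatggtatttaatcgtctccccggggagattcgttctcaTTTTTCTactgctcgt
GAS5: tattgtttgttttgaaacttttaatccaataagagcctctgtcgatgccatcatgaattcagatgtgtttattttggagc
EPB41L4A-AS1: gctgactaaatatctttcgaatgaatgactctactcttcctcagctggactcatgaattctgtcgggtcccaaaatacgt
MALAT1, first window: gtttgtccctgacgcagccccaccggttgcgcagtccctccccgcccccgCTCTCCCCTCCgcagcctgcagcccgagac
MALAT1, second window: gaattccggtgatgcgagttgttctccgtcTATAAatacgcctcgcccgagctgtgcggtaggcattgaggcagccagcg
SNHG12, ZFAS1, SNHG5 and SNHG8 hold both features, as 4 of the 9 windows of these genes do, against 1.47% of all 35116 windows in the RefSeq table. TATAA on the gene's strand stood in 5 of the 9 windows and in 4.74% of all windows (6.08% with either strand, again 5 of the 9). The pyrimidine run stood in 6 of the 9 and in 30.4% of all windows. One of these 6 is the first MALAT1 window, with a run of 11 and no TATAA, and the second MALAT1 window holds TATAA and no such run. SNHG1 had a run of 7 and no TATAA in its window, and GAS5 and EPB41L4A-AS1 had neither. The GAS5 window (chr1:173869026-173869105, minus strand) lies wholly upstream of the GENCODE model of the gene (173863900 to 173868882). It does not cover the start of that model, where neither feature was searched for. The features are letters in fixed windows and not mapped sites, and the RefSeq start may differ from the one used in these cells. The SNHG12 window lies at chr1:28581854-28581933 on the minus strand, the ZFAS1 window at chr20:49278582-49278661 on the plus strand, the SNHG5 window at chr6:85678714-85678793 on the minus strand and the SNHG8 window at chr4:118278702-118278781 on the plus strand.

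The snoRNAs that could be set beside their hosts are 3, and their reference sequences (GENCODE release 29, GRCh38) follow. Capitals mark TGATGA, the usual C box, and the last CTGA, the D box, in the C/D class, which guides methylation. In the H/ACA class, which guides pseudouridylation, they mark the last ACA.
SNORD12C in ZFAS1: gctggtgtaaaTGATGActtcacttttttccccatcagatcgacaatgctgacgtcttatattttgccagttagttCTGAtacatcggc
SNORD99 in SNHG12: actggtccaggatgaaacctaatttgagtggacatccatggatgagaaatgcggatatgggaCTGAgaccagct
SNORA13 in EPB41L4A-AS1: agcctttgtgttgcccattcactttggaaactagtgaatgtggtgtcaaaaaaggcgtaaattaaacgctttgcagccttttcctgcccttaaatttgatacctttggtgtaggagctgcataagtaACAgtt
SNORD12C spans 89 bases (chr20:49278940-49279028, plus strand), SNORD99 spans 74 (chr1:28578749-28578822, minus strand) and SNORA13 spans 133 (chr5:112161485-112161617, plus strand). The letters TGATGA were not found in SNORD99. All 3 lie on the strand of their host and outside its annotated exons. That annotation places 19 snoRNA genes inside the 10 genes. Rows were analysed for 3 of the 4 that share no base with a host exon, and for 0 of the 15 that do. The 19 include none of the snoRNAs of GAS5, which were not analysed here.

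The libraries held an estimated 29700000 to 38500000 fragments, with control 3 the shallowest. KCNN4 stood at 184, 148 and 169 FPKM in the SK4 libraries, against 8.31, 8.26 and 8.52 FPKM in the control libraries (limma, adjusted p = 8.83e-07; exact two-sided permutation p = 0.1, the smallest that 3 against 3 allows). The libraries had an epithelial profile, with all 6 keratin, EPCAM and CDH1 markers above 1 FPKM (sums of 595.4 to 648.3 FPKM in SK4 and 576.8 to 626.2 FPKM in control libraries). None of 7 thyroid follicular markers reached a mean of 1 FPKM (sums of 0.46 to 0.53 FPKM in SK4 and 0.41 to 0.56 FPKM in control libraries), PAX8 and TG among them. Leukocyte markers reached 1 FPKM for 2 of 6 genes, CD68 and CD14, and PTPRC stayed at or below 0.01 FPKM. Of the fibroblast markers 1 of 6 did so, LUM, while COL1A1 and COL3A1 stayed at or below 0.08 FPKM, and of the endothelial markers 0 of 4 did. SK4 2 and control 3 had the lowest weights when limma estimated the quality of each library (0.499 and 0.227, against 0.921 to 3.30 in the other 4), and fewer genes reached 1 FPKM in them (10855 and 10735) than in the other 4 (11069 to 11147).

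SNHG6 was by far the most abundant of the 10 RNAs, and the 10 covered almost 3 orders of magnitude. Without SNHG5, whose low values are in doubt as given below, the means ran from 268.8 FPKM down to 2.85 FPKM. FPKM is scaled per kilobase of gene, so these levels can be compared between genes, as far as the gene length used by the authors holds for the isoforms these cells make. The level of SNHG6, host of SNORD87, was 278, 254 and 268 FPKM in SK4 1 to 3, against 289.8, 279 and 243 FPKM in control 1 to 3. Control 3 was its lowest and control 1 its highest library, so the SK4 values lay inside the control range. SNHG6 ranked 144th among the 32896 genes.

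GAS5, named for its accumulation in growth-arrested cells, was the next most abundant. GAS5 stood at 52.8, 47.2 and 50 FPKM in the SK4 libraries, against 51.8, 50.1 and 48.8 FPKM in the control libraries. The groups overlapped, and the SK4 libraries held both the highest and the lowest value. ZFAS1, transcribed from the strand opposite ZNFX1, stood at 37.6, 35.6 and 37.9 FPKM in the SK4 libraries and at 36.9, 37.7 and 33.0 FPKM in the control libraries. SNHG1, host of a run of C/D box snoRNAs, stood at 36.1, 29.4 and 32.9 FPKM in SK4 and at 33.3, 35.3 and 29.1 FPKM in control libraries. In both genes the groups overlapped, and the lowest libraries were SK4 2 and control 3.

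SNHG12 was at 19.4, 16.5 and 18.3 FPKM in the SK4 libraries, against 17.9, 18.7 and 16.1 FPKM in the control libraries. SNHG8, host of SNORA24, was at 12.8, 11.4 and 12.6 FPKM in the SK4 libraries, against 13.6, 13.2 and 11.5 FPKM in the control libraries. EPB41L4A-AS1, which overlaps EPB41L4A on the other strand, was at 8.74, 8.08 and 9.17 FPKM in the SK4 libraries, against 8.66, 8.53 and 8.29 FPKM in the control libraries. The groups overlapped in each of the 3 genes. For EPB41L4A-AS1 the control values lay within 1.04-fold of each other, the narrowest control range of the 9 RNAs that could be tested.

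In FPKM, the nuclear RNAs were below all hosts but SNHG5. FPKM divides by the gene length used, and poly(A) selection need not recover these RNAs in full. This order may therefore not hold for amounts in the cell. MALAT1 stood at 5.67, 3.65 and 4.04 FPKM in SK4 1 to 3, against 4.79, 5.08 and 3.35 FPKM in control 1 to 3. SK4 1 was the highest and control 3 the lowest library, and the groups overlapped. NEAT1 stood at 3.15, 2.36 and 2.74 FPKM in the SK4 libraries, against 3.18, 3.42 and 2.24 FPKM in the control libraries, again with overlap. Both genes lie on the plus strand of chromosome 11 in GRCh38, NEAT1 at 65422774 to 65445540 and MALAT1 at 65497688 to 65506516, with 52148 bp between them.

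SNHG5 had the lowest values of the 10. The gene models and the handling of overlapping genes behind the FPKM are not given in the sources used here, so its values may not show how much of the RNA was present. Its level was 0.37, 0.32 and 0.38 FPKM in the SK4 libraries, against 0.31, 0.34 and 0.33 FPKM in the control libraries. With the exon length of GENCODE release 29 (2806 bases) that is about 28 to 41 fragments per library, for which counting alone gives a coefficient of variation of 15.6% to 19.1%. SNHG5 missed the filter of 1 FPKM in 3 or more libraries, so 9 of the 10 RNAs entered the test. For these 9 the same estimate gave 316 to 13393 fragments.

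**Figure D1:**
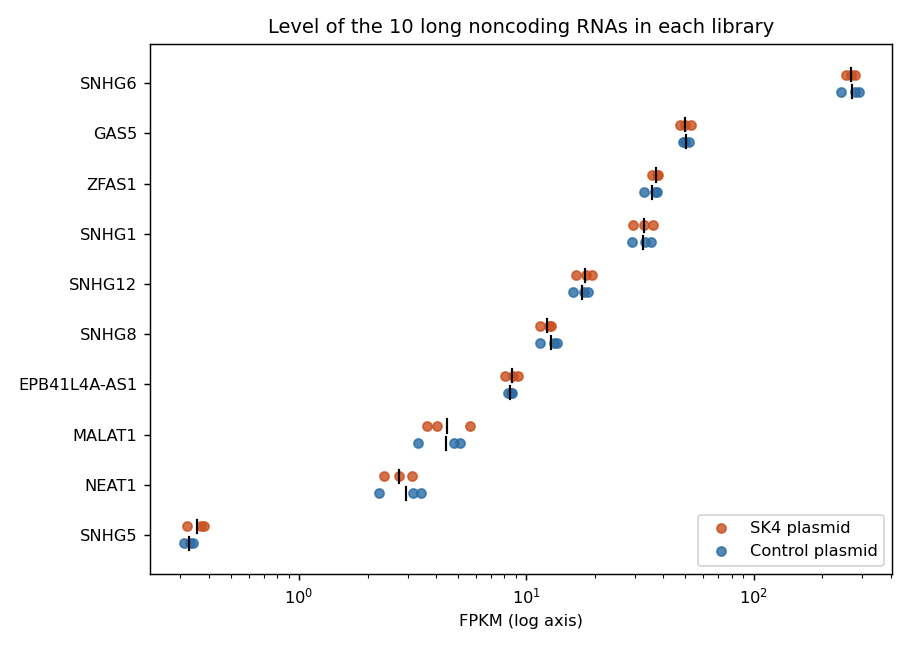
Level of each of the 10 RNAs (FPKM, log axis) in the 3 SK4 plasmid libraries (upper row of each pair) and the 3 control plasmid libraries (lower row); points are libraries and black ticks are means. The groups overlap for each RNA, from SNHG6 at 243 to 289.8 FPKM down to SNHG5 at 0.31 to 0.38 FPKM.

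Ranked by mean level over the 6 libraries, the order was SNHG6, GAS5, ZFAS1, SNHG1, SNHG12, SNHG8, EPB41L4A-AS1, MALAT1, NEAT1 and SNHG5. The order was the same in each library: at every step the gene named first was higher in 6 of 6. At a pair of these steps the ranges over the 6 libraries overlapped, although the order held within each library. The lowest ZFAS1 value (33.0 FPKM) lay below the highest SNHG1 value (36.1 FPKM), and the lowest MALAT1 value (3.35 FPKM) below the highest NEAT1 value (3.42 FPKM). The ratio of MALAT1 to NEAT1 was 1.8, 1.55 and 1.47 in the SK4 libraries, against 1.51, 1.49 and 1.50 in the control libraries. Apart from SK4 1, it held within a narrow range while each of the genes moved.

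None of the 9 tested RNAs was called different between the SK4 and the control plasmid, and SNHG5 was not tested. Across all 11139 tested genes, KCNN4 alone was called, which is 0.00898% of them (limma on log2(FPKM + 0.5), Benjamini-Hochberg adjusted p under 0.05). Of the 9 tested RNAs, 0 had an unadjusted p under 0.05, a level that 1.65% of all tested genes reached. For the same 9, the groups were separate for 0, against 5.34% of all tested genes (3.53% with the SK4 libraries above and 1.81% with them below). Fold changes are on the log2(FPKM + 0.5) scale, which understates those of low genes, and the median over all tested genes was 0.011. Fewer cells expressing an RNA and less of it per cell cannot be told apart in such bulk samples.

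For the hosts the intervals were narrow, and they cover only the spread between these libraries. Over the 7 tested hosts the 95% confidence interval of the fold lay between 0.852 and 1.17. Among these 7, ZFAS1 had the most positive difference, a log2 fold change of 0.049 (95% interval of the fold 0.941 to 1.14, unadjusted p = 0.427, limma). SNHG8 had the most negative, a log2 fold change of -0.053 (interval of the fold 0.852 to 1.09, unadjusted p = 0.504, limma). GAS5, at a log2 fold change of -0.0083, had the narrowest interval in fold (0.919 to 1.08). The median over all 8 hosts, SNHG5 included as a difference of means, was 0.018. That lies close to the 0.011 of all tested genes.

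For the nuclear RNAs the intervals were wider. MALAT1 had a log2 fold change of 0.011 with an interval of the fold from 0.744 to 1.37 (unadjusted p = 0.955, limma). NEAT1 had a log2 fold change of -0.075 with an interval from 0.740 to 1.22 (unadjusted p = 0.639, limma). The adjusted p was 0.99997 for each of the 9 tested RNAs (limma). A miss of the threshold does not show that levels were equal, and the intervals give the range of changes that these libraries do not separate from none.

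**Figure D2:**
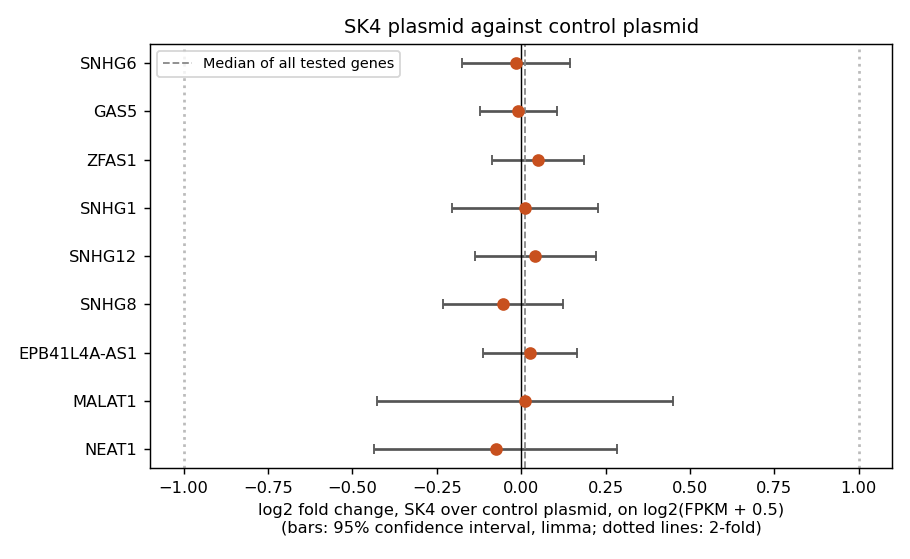
Log2 fold change of the 9 tested RNAs, SK4 over control plasmid, with 95% confidence intervals from limma; the dashed line is the median of all tested genes (0.011) and the dotted lines mark a fold of 2 in either direction. Each interval includes 0, and those of MALAT1 and NEAT1 are the widest.

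What did vary was the level between libraries of 1 group. MALAT1 differed 1.55-fold between the highest and lowest SK4 library and 1.52-fold between those of the control, and NEAT1 1.33-fold and 1.53-fold. For the 7 tested hosts the widest such range was 1.23-fold in the SK4 and 1.21-fold in the control libraries, both in SNHG1. The within-group standard deviation on the log2 scale was 0.29 for MALAT1, larger than that of 97.6% of all tested genes. It was 0.23 for NEAT1 (larger than 93.4%) and 0.064 to 0.14 for the tested hosts. Among tested genes of similar mean level, MALAT1 exceeded 98.4% of 1481 and NEAT1 91.5% of 1450. For the tested hosts this share ran from 35.0% of 1251 for EPB41L4A-AS1 to 94.6% of 56 for SNHG6, with SNHG1 at 87.0% of 546. Matched for level, a high spread was thus not particular to the nuclear RNAs. By the exon lengths of GENCODE release 29, which may not be those the authors used, counting error alone would give a coefficient of variation of 2.34% to 3.37% for MALAT1 and 1.83% to 2.57% for NEAT1.

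These differences ran the same way in nearly all of the 10 RNAs. SK4 2 was the lowest SK4 library for 10 of 10, and control 3 was the lowest control library for 9 of 10, SNHG5 being the other. The next folds are differences of log2(FPKM + 0.5) from the mean of the other libraries of the group, turned back into folds. By this measure MALAT1 was at 0.784-fold in SK4 2 and at 0.709-fold in control 3, and NEAT1 at 0.832-fold and 0.721-fold. The added 0.5 understates such differences for low genes, so the folds of the FPKM themselves were larger. On the log2 scale the tested hosts were lower by 0.083 to 0.23 in SK4 2 and by 0.049 to 0.23 in control 3. The median of all tested genes differed by -0.036 in SK4 2 and by -0.097 in control 3. For GAS5 and EPB41L4A-AS1 the difference in control 3, -0.060 and -0.049, was smaller in size than that median.

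**Figure D3:**
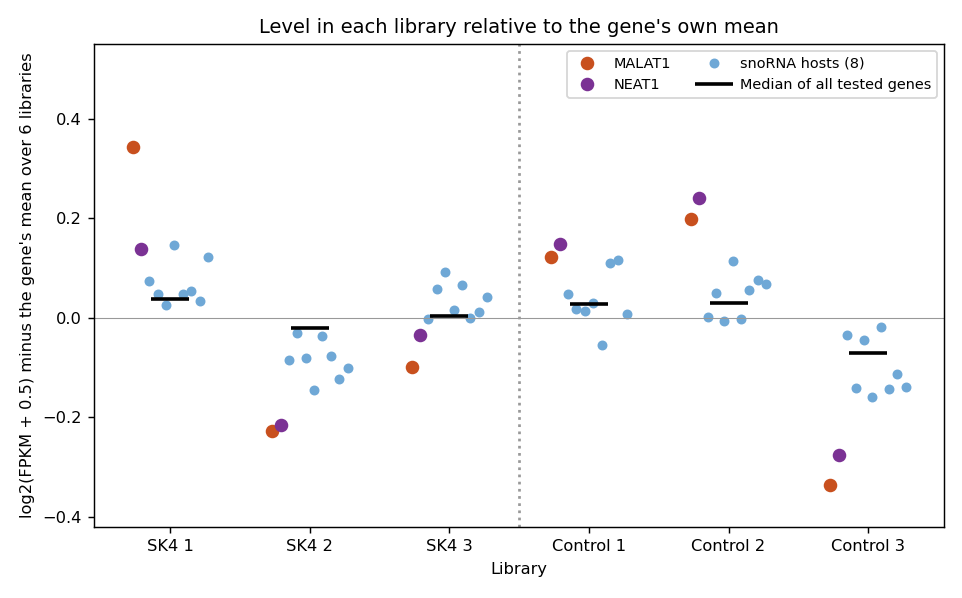
Log2(FPKM + 0.5) of each RNA minus its own mean over the 6 libraries, for SK4 1 to 3 and control 1 to 3; orange points are MALAT1, purple points NEAT1, light blue points the 8 hosts, and black bars the median of all tested genes. SK4 2 and control 3 are the low libraries, MALAT1 reaching -0.23 and -0.34 there.

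The same pair of low libraries is common in these data. Of all tested genes, 41.0% were lowest in SK4 2 within the SK4 group and in control 3 within the control group, so the 9 of 9 tested RNAs are to be read against that share, and the libraries were picked with the data known. Other measures moved with it. The mitochondrial transcripts took 21.4% of all FPKM in SK4 2 and 22.004% in control 3, against 20.4% to 21.2% in the other 4 libraries. The 50 most abundant genes took 35.2% and 35.9%, against 33.8% to 34.6%. LUM, the fibroblast marker above 1 FPKM, had the same low libraries, at 31.2, 22.8 and 27.6 FPKM in SK4 and 26.9, 26.3 and 21.9 FPKM in control libraries. Of the 6 epithelial markers only 1 had them. The median of these 6, each centred on its own mean (log2), was 0.063 in SK4 2 and -0.0028 in control 3. Since 41.0% of all tested genes share the pair, LUM alone shows no change in a cell type. The part of these measures in the levels of the 10 RNAs was not tested.

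With SK4 2 and control 3 left out, 0 of the 9 tested RNAs was called, while the count over all genes was 4 (limma). MALAT1 then had a log2 fold change of -0.038, against 0.011 with all 6 libraries. Without control 3 alone it was -0.15, and without SK4 1 alone -0.16, so its sign rested on single libraries. NEAT1, at -0.075 with all 6 libraries, was at 0.014 without SK4 2 and at -0.23 without control 3. Neither gene reached an unadjusted p of 0.05 in any of these fits.

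Genes with the same profile over the 6 libraries were found by the mean absolute difference between centred log2 levels. Closest to MALAT1 were BTAF1, a regulator of the TATA-binding protein, with 0.037, C5orf34 with 0.040 and FASTKD3, of the FASTK family of mitochondrial RNA-binding proteins, with 0.051. Closest to NEAT1 were GTF2H3, a subunit of the transcription factor TFIIH, AASDHPPT and ZNF608, each at 0.023 to 0.024. Closest to GAS5 were MRPL33, a mitochondrial ribosomal protein, with 0.0067, RSU1 with 0.011 and FBXO22 with 0.014. BTAF1 stood at 2.30, 1.50 and 1.76 FPKM in the SK4 libraries, against 1.98, 2.09 and 1.35 FPKM in the control libraries. With 6 libraries and 11139 genes, close matches are easily found, and this is a description only.

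Genes flanking MALAT1 and NEAT1 had other low libraries. FRMD8, upstream of NEAT1, stood at 9.63, 9.94 and 9.26 FPKM in the SK4 libraries, against 9.28, 9.31 and 10.4 FPKM in the control libraries. LTBP3, downstream of MALAT1, was likewise highest in control 3 within its group, at 10.03 FPKM. Neither gene was lowest in SK4 2 and control 3, and neither was called (limma, unadjusted p = 0.948 for FRMD8 and 0.872 for LTBP3).

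None of the tested genes on the strand opposite the hosts, or beside them, was called (limma, 0 at an unadjusted p under 0.05). ZNFX1, a helicase gene that ZFAS1 runs antisense to, stood at 12.02, 11.4 and 10.6 FPKM in the SK4 libraries, against 10.8, 11.1 and 10.4 FPKM in the control libraries (log2 fold change 0.077, limma adjusted p = 0.99997). The libraries keep the strand, but how the authors used it in counting is not given in the sources used here, so reads of such a pair may be mixed. ZFAS1 and ZNFX1 share 249 annotated exon bases, SNHG12 and TRNAU1AP 8. EPB41L4A was at or below 0.11 FPKM in each library, although it shares 1659 exon bases with EPB41L4A-AS1 at 8.08 FPKM or more. SLC3A2 and WDR74, which neighbour SNHG1, were at 52.4 to 53.2 and 18.4 to 20.1 FPKM in SK4 libraries, and at 50.6 to 53.6 and 19.1 to 20.1 FPKM in control libraries. For PPP1R42, a neighbour of SNHG6, FPKM was 0.0297 to 0.0312 of that of SNHG6 in the SK4 libraries and 0.0304 to 0.0312 in the control libraries. This ratio was taken for no other neighbour of a host. Both genes were lowest in SK4 2 and control 3 within their groups, as were 41.0% of all tested genes. A link between the genes was not tested.

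Both tested snoRNAs had a larger log2 difference in size than their host, and neither was called with all 6 libraries. The difference between snoRNA and host was not tested. SNORD12C stood at 4.31, 4.27 and 4.68 FPKM in the SK4 libraries, against 5.32, 7.58 and 6.81 FPKM in the control libraries. All SK4 values lay below all control values, while the ZFAS1 groups overlapped and ZFAS1 had a small positive difference. The log2 fold change of SNORD12C was -0.51 with an unadjusted p of 0.0033, and it did not pass over all genes (limma, adjusted p = 0.99997). That p was known when the snoRNA was chosen, and 1.81% of all tested genes had their SK4 values below. These values rest on few reads: 14, 14 and 16 fragments in the SK4 libraries, against 17, 26 and 18 in the control libraries.

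The difference of SNORD99 was positive, with levels of 5.92, 3.30 and 4.93 FPKM in the SK4 libraries, against 2.63, 2.81 and 4.55 FPKM in the control libraries. SK4 2 lay below control 3, so the groups overlapped (log2 fold change 0.45, unadjusted p = 0.101, adjusted p = 0.99997, limma). Without SK4 2 and control 3 it was called higher (log2 fold change 0.88, limma adjusted p = 0.0433), with 2 libraries left in each group. That pair was picked with the data known, and holds the lowest SK4 and the highest control value of SNORD99. Its removal therefore separates the groups, and this call carries no weight of its own. In the other settings that tested SNORD99, the limma adjusted p was 0.299 or more. The host SNHG12 had a log2 fold change of 0.042 with all 6 libraries. SNORD99 rests on 16, 9 and 14 fragments in SK4 and 7, 8 and 10 in control libraries. Counting alone gives these a coefficient of variation of 25.0% to 37.8%. SNORA13 stood at 0.82, 0.61 and 0.39 FPKM in the SK4 libraries, against 1.05, 0.78 and 0.76 FPKM in the control libraries, with overlap. It rests on 2 to 4 fragments in SK4 and 3 to 5 in control libraries, and did not enter the test. Fragments inside a host intron may stem from the snoRNA or from unspliced host RNA, and gene-level values do not separate these.

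**Figure D4:**
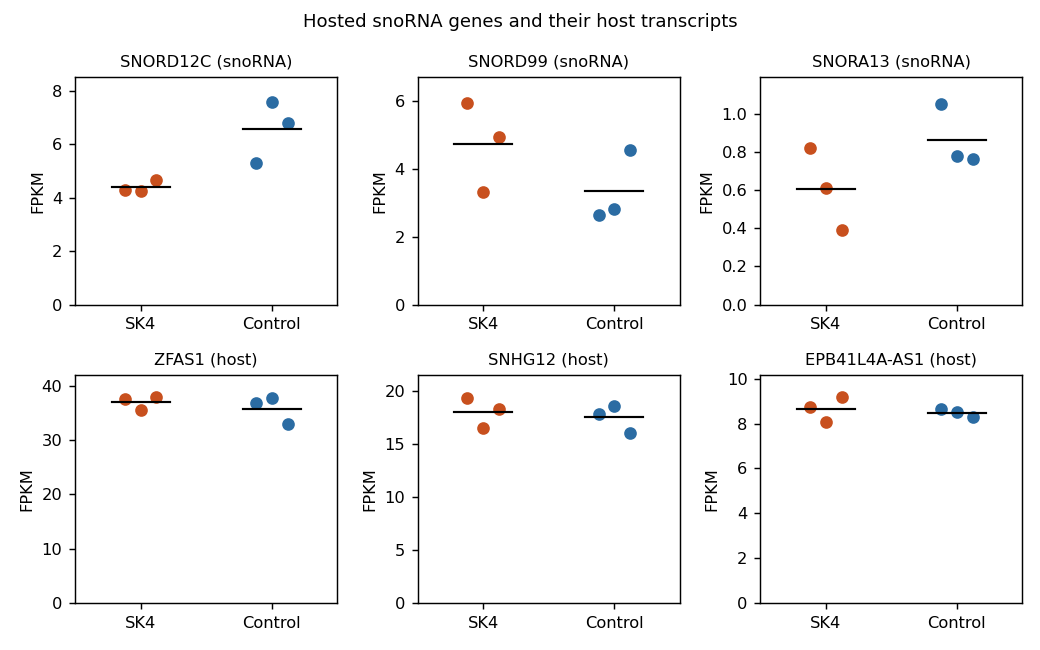
FPKM of 3 snoRNA genes (top) and of the host transcripts they lie in (bottom), in 3 SK4 and 3 control plasmid libraries; points are libraries, black lines are means, and axes start at 0. SNORD12C lies at 4.27 to 4.68 FPKM in SK4 and 5.32 to 7.58 FPKM in control libraries, while the groups of each host overlap.

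Other long noncoding snoRNA hosts were measured beside the 8, and the lists were not tested against each other. Of 20 on the list 16 were tested, 0 were called and 0 had an unadjusted p under 0.05, with 5 positive and 11 negative fold changes and a median of -0.017 (limma). SNHG29, the most abundant, stood at 69.1, 66.0 and 66.2 FPKM in the SK4 libraries, against 69.5, 67.2 and 65.0 FPKM in the control libraries. SNHG19 followed at 52.1 to 56.1 FPKM in SK4 and 50.4 to 58.7 FPKM in control libraries. The groups were separate for 1 of the 16, SNHG17, at 3.25 to 3.28 FPKM in SK4 and 3.32 to 3.65 FPKM in control libraries. Over all tested genes, 5.34% had separate groups. SNHG15 was listed at 0.05 FPKM or less, with the same doubt about gene models as for SNHG5. The low pair of libraries, SK4 2 and control 3, was shared by 11 of the 16.

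Protein-coding genes that carry snoRNAs, most of them for ribosomal proteins and translation factors with TOP motifs, were all tested. Of the 36, limma called 0, and 0 had an unadjusted p under 0.05, with a median log2 fold change of -0.014 and 26 negative values. The groups were separate for 1 of them, RPL3, at 329 to 336 FPKM in SK4 and 337 to 345 FPKM in control libraries. The share with separate groups over all tested genes was 5.34%. RPS12 stood at 2015, 1935 and 1950.4 FPKM in the SK4 libraries, against 2132, 2006 and 1890.4 FPKM in the control libraries. SK4 2 and control 3 were the low libraries for 14 of the 36, close to the 41.0% of all tested genes.

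The proteins that act on these RNAs were measured at the RNA level too. For the snoRNP core and its assembly factors, 17 of 17 were tested, 0 were called and the median log2 fold change was -0.0042. NOP10, of the H/ACA core, was at 262 to 269 FPKM in SK4 and 257 to 278 FPKM in control libraries, and NHP2, its partner, at 180.0 to 193 FPKM and 184 to 195 FPKM. For paraspeckle proteins, 20 genes were tested, 0 were called and the median was -0.020. HNRNPA1 was at 91.5 to 107 FPKM in SK4 and 89.6 to 117 FPKM in control libraries, and HNRNPK at 83.5 to 91.0 and 80.8 to 95.2 FPKM. NONO and SFPQ, which bind NEAT1 directly, had log2 fold changes of -0.027 and -0.0022. The low pair of libraries was shared by 16 of the 20 paraspeckle genes and by 7 of the 17 snoRNP genes.

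Decay and 3' end factors completed the lists. Of 18 nonsense-mediated decay and exonuclease genes 15 were tested, 0 were called and the median log2 fold change was 0.013. SMG5, an adaptor of the pathway, was at 39.7 to 42.7 FPKM in SK4 and 39.3 to 40.7 FPKM in control libraries, and MAGOH, of the exon junction complex, at 29.9 to 32.7 and 28.0 to 34 FPKM. Of the 18 genes for RNase P, RNase Z, the triple helix binder METTL16 and speckle or stability factors, 18 were tested, 0 were called and the median was 0.0049. POP7, an RNase P subunit, was at 144 to 153 FPKM in SK4 and 138 to 148 FPKM in control libraries, and SRSF2 at 86.3 to 95.6 and 84.2 to 96.3 FPKM. The groups were separate for 1 of these 18, RPP38, at 12.2 to 12.4 FPKM in SK4 and 10.3 to 11.96 FPKM in control libraries. RPP38 is an RNase P subunit, and 5.34% of all tested genes had separate groups. METTL16 was at 2.20 to 2.58 FPKM in SK4 and 2.27 to 2.70 FPKM in control libraries. In these 4 lists 0 genes had an unadjusted p under 0.05 (limma).

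**Figure D5:**
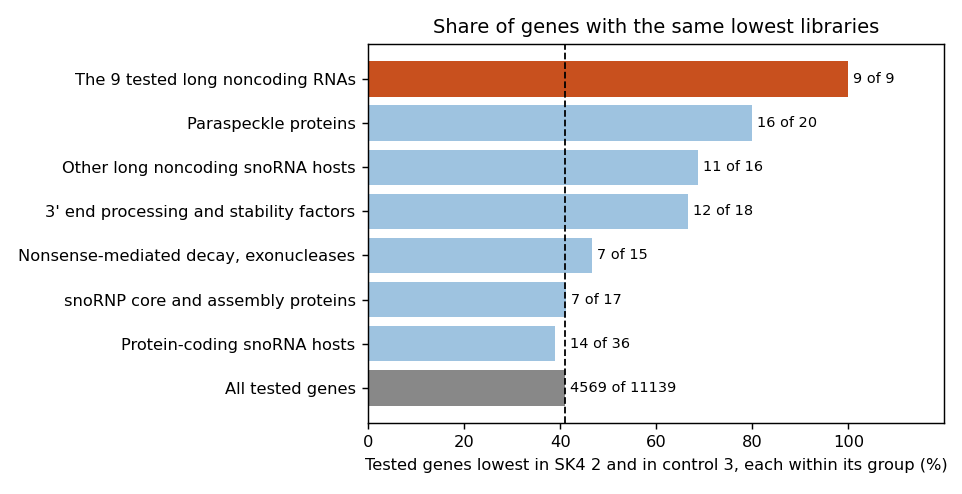
Percent of tested genes in each list whose lowest SK4 library was SK4 2 and whose lowest control library was control 3, with the counts beside the bars; the dashed line is the share among all tested genes (41.0%). The 9 tested long noncoding RNAs are at 100%, paraspeckle proteins at 80% and protein-coding hosts at 38.9%.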

How the data were processed

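RNA-seq libraries were analysed in 2 groups of 3. HISAT2 as aligner and GRCh38 as build come from the submitters' processing notes. Which program and gene models gave the values is not given in the sources used here. Deposited by the authors were FPKM values (fragments scaled by gene length and library depth), rounded to 2 decimals, with 1 column per library. A count model was not used, because FPKM are not counts. Depth was estimated from 561 single-exon genes under 160 nt, for which 99.4% to 99.5% of values worth up to 5 fragments were whole within 0.1. It covers counting error only.

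The test was limma 3.58.1 in R 4.3.3 on log2(FPKM + 0.5), with a trended, robust prior and group as the only term. It covered the 11139 genes that reached 1 FPKM in 3 libraries or more. The fit was tried on simulated data with noise drawn separately for each gene and library. That simulation leaves out differences that many genes share in a library, as in SK4 2 and control 3. Loci came from GENCODE release 29 (31742 of 32896 identifiers matched) and start-site windows from RefSeq. The genes and lists were chosen with earlier results of these data known. Named from each list were the 2 genes with the highest mean and any at an unadjusted p under 0.05; a few genes are not reported here. SNHG17, SNHG15, RPL3, RPP38, NONO, SFPQ and METTL16 were named after their values were seen.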

Additional observations from a re-analysis of the deposited data

How the results depend on the processing

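Over 16 other settings of pseudocount, filter, scaling, library weights, prior, replicate number and libraries left out, none of the RNAs that could be tested was called or had an unadjusted p under 0.05 (limma). SNHG5 was tested without a filter only (unadjusted p = 0.538). The sign held in 16 of 16 settings for SNHG8 (negative) and SNHG5 (positive), and changed in at least 1 setting for the other 8. MALAT1, at 0.011, was at -0.00021 with median-ratio scaling, -0.15 with library weights and -0.038 without control 3 and SK4 2 together. SNHG1, at 0.011, was at -0.0016 with median-ratio scaling and -0.028 with library weights. GAS5, at -0.0083, was at 0.012 without that pair. SNHG5, at 0.051, was at 0.096 with a pseudocount of 0.1. Leaving out 1 library gave -0.16 to 0.13 for MALAT1, -0.23 to 0.026 for NEAT1, -0.048 to 0.032 for GAS5, -0.0099 to 0.086 for ZFAS1, -0.014 to 0.072 for EPB41L4A-AS1, -0.066 to 0.086 for SNHG1, -0.091 to 0.036 for SNHG6, -0.12 to -0.0046 for SNHG8, 0.031 to 0.082 for SNHG5 and -0.017 to 0.10 for SNHG12. The cause was not tested. Over all genes 4 were called without that pair, against 1 otherwise. With the replicate number as a block 1 gene was called, KCNN4 as before. Same-numbered libraries, with each gene centred within its group, correlated at 0.306, -0.41 and -0.154. SK4 2 and control 3 correlated at 0.528. A deviation shared by these could hide a pairing, so the correlations do not decide whether the numbers pair the libraries. With 5 FPKM as the filter, MALAT1 and NEAT1 could not be tested. Estimated counting error was largest for SNHG5 and the snoRNAs. The doubt about the gene models behind SNHG5 is separate from this.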
